A study of Mus musculus with 2 samples.

Results

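Microtubules are polymers of alpha- and beta-tubulin, and young neurons assemble and dismantle them constantly while they migrate and grow axons and dendrites. Doublecortin (Dcx) binds and stabilises microtubules in migrating neuroblasts, the stathmins bind free tubulin and favour disassembly, and the microtubule-associated proteins Map1b and tau (Mapt) line the microtubules of growing and of mature axons. In the dentate gyrus, where neurons are born throughout life, doublecortin is the usual marker of the newborn granule neuron. The 10 genes examined here, out of 15474 in the counts, were chosen as a family: Dcx, the alpha-tubulin Tuba1a, the beta-tubulins Tubb2a, Tubb2b, Tubb3 and Tubb5, the stathmins Stmn1 and Stmn2, and Map1b and Mapt. All 10 were in the counts, and together they made up 0.835% of the unique molecular identifiers (UMIs, tags that count single RNA molecules) of the fresh and 0.596% of those of the MeOH-fixed library.

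Cells were dissociated from the dentate gyri (DG) of C57BL/6J mice of 4 to 5 weeks and sorted singly into plates (SORT-seq), either fresh, as 1 plate from a pool of 3 mice, or after fixation in methanol (MeOH), frozen storage for 3 weeks and rehydration, as 1 plate from a pool of 4 mice. Cells positive for a dead-cell stain were left out in the sort of the fresh cells, and no such stain is described for the fixed ones. After the authors' filter 64 fresh cells with 534122 UMIs and 132 MeOH-fixed cells with 729018 UMIs remained, and 24 well numbers, which serve as cell barcodes, held a retained cell on both plates. Each condition was 1 library, so that differences could not be checked against replicates and were not tested, and all intervals are exact 95% intervals of counting error alone.

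The deposited annotation sorts the cells into 8 identities. Fresh and MeOH-fixed cells numbered 16 and 21 for neural intermediate progenitor cells (nIPCs) and neuroblasts, 5 and 25 for immature neurons, 2 and 19 for mature neurons, 18 and 29 for astrocytes and radial glia-like cells (RGLs), 5 and 10 for oligodendrocyte progenitor cells (OPCs), 2 and 13 for oligodendrocytes, 10 and 7 for microglia, and 6 and 8 for endothelial cells. Levels are given as CPM, the UMIs of a gene per 1000000 of the summed UMIs of all cells of an identity in a library. Since each molecule was counted at its 3′ end, CPM was compared between genes without a correction for length. The identities came from clusters built on all genes, and Dcx was among the genes that named the nIPCs and neuroblasts, so that levels across identities are a description.

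Markers outside the family were set beside the labels. The 7 markers of nIPCs and neuroblasts (among them Sox11, Neurod1 and Eomes) summed to 7449 CPM in fresh and 5120 CPM in MeOH-fixed cells of that identity and to at most 397 CPM in any other identity. The labels of the older neurons were less distinct. The 6 markers of mature neurons, which include Calb1 (calbindin, a calcium-binding protein of mature granule neurons), summed to 1292 CPM in MeOH-fixed immature and to 1202 CPM in MeOH-fixed mature neurons, and in fresh cells to 1353 CPM in immature neurons and to 82 CPM in the 2 mature ones. The identity labelled immature neurons therefore held calbindin-expressing cells, and of Dcx it had 0 UMIs in the fresh and 3 in the MeOH-fixed library. The 7 markers of immature neurons summed to 1655 CPM there and 1906 CPM in nIPCs and neuroblasts of the fresh library, and to 2084 and 863 CPM in the MeOH-fixed one. Of these, Dsp, Gda, Rbm24 and Rasgrf2 had 0 UMIs in fresh nIPCs and neuroblasts and were counted in immature neurons (Gda at 323 CPM), whereas Ncam1 was higher in nIPCs and neuroblasts (1144 against 291 CPM). In MeOH-fixed nIPCs and neuroblasts Rbm24 and Rasgrf2 again had 0 UMIs, but Dsp and Gda were counted. In mature neurons the 7 markers of immature neurons summed to 1330 CPM in MeOH-fixed and 82 CPM in fresh cells.

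The neighbouring genes Tubb2a (chr13:34074274-34078007, minus strand, GRCm38) and Tubb2b (chr13:34126748-34130466, minus strand) lay 48740 bases apart with 3 annotated genes but 0 protein-coding ones between them, and 96.5% of their coding bases were identical. Their levels nevertheless peaked in different cells (below), so that their sequences are shown with those of 3 other beta-tubulins. The last 60 coding bases before the stop codon encode the acidic tail, the stretch in which beta-tubulins differ most and which carries many of their modifications. Read from GRCm38 with the GENCODE annotation, 5′ to 3′ on the coding strand, they follow here, with capitals where a base differs from Tubb2b or has no counterpart in it when whole coding sequences are aligned. Tubb2a is at chr13:34074471-34074530 and Tubb2b at chr13:34127474-34127533 on the minus strand, Tubb3 at chr8:123421620-123421679 on the plus strand, and Tubb5 at chr17:35834985-35835044 and Tubb4a at chr17:57080693-57080752 on the minus strand.
Tubb2b: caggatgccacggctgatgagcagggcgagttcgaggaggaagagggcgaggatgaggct
Tubb2a: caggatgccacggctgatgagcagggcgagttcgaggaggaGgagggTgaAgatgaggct
Tubb3: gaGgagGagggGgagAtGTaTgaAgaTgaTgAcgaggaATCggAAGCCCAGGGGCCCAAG
Tubb5: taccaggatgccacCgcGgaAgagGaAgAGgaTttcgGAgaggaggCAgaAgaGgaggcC
Tubb4a: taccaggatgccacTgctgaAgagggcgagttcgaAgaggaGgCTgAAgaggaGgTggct
Tubb2a carried 3 capitals, Tubb4a 10, Tubb5 15 and Tubb3, whose coding sequence is the longest of these at 1350 bases, carried 31. Over the whole coding sequence the identity with Tubb2b was 83.4% for Tubb3, 84.0% for Tubb5 and 84.5% for Tubb4a.

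Likeness of sequence bears on the counts, since the authors kept no read with several equally good positions in the genome. Of the windows of 60 bases in the last 500 bases of the transcript, 55.3% were shared with another gene for Tuba1a (12 genes, Tuba1b and Tuba1c among them) and 38.8% for Tubb2a (Tubb2b and Tubb2a-ps2), 0.227% for Stmn1, and 0 for the other 7 genes, Tubb2b included. Reads within these windows could not be counted, so that Tuba1a and Tubb2a may be understated against other genes. Annotated genes also overlapped Tuba1a (Gm49450), Tubb3 (Gm20388), Stmn1 (Gm23634) and Map1b (5330431K02Rik) on the same strand and Mapt (3 genes) on the other, and counts of these genes could include reads of the overlapping ones.

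Dcx (chrX:143855842-143933311, minus strand) was found almost wholly in nIPCs and neuroblasts. Of its 172 UMIs in fresh cells 170 lay in this identity, and the other 2 in OPCs. Of its 46 UMIs in MeOH-fixed cells 40 lay there, with 3 in immature neurons, 2 in OPCs and 1 in an oligodendrocyte. Fresh nIPCs and neuroblasts had 967 CPM (827 to 1124) and MeOH-fixed ones 454 CPM (324 to 618), above every other identity beyond the intervals, and the other 7 identities could not be ordered within either library. A Dcx UMI was seen in 14 of 16 fresh cells of this identity (87.5%, Clopper-Pearson 61.7 to 98.4%, median 11469 UMIs per cell) and in 11 of 21 MeOH-fixed cells (52.4%, 29.8 to 74.3%, median 3873 UMIs). Thinned to 800 UMIs per cell, these became 7 of 16 and 4 of 21 cells. In microglia and endothelial cells, which should lack the gene, it was seen in 0 of 16 fresh cells (median 3990 UMIs) and in 0 of 15 MeOH-fixed cells (median 2134 UMIs). The Clopper-Pearson upper limits of the share of cells with a UMI were 20.6% in fresh and 21.8% in MeOH-fixed cells, where 3 cells would have been 18.8 and 20.0%. These limits do not bear on cells that express the gene below the depth reached.

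Tubb3 (chr8:123411424-123422015, plus strand), the beta-tubulin used as a marker of neurons, and Stmn2 (chr3:8509360-8561606, plus strand), a stathmin of growth cones, were also highest in nIPCs and neuroblasts. Tubb3 had 694 CPM (577 to 829) in fresh cells, where the MeOH-fixed value was 749 CPM (579.5 to 953), and Stmn2 had 785 CPM (659.7 to 928) and 840 CPM (659.6 to 1055). Both genes were lower in older neurons. Tubb3 had 62 CPM (6 UMIs) in fresh and 83 CPM (25 UMIs) in MeOH-fixed immature neurons, and Stmn2 had 42 CPM (4 UMIs) and 50 CPM (15 UMIs). In MeOH-fixed immature neurons 11 of 25 cells had a Tubb3 UMI and 3 of 25 a Dcx UMI, and the 3 cells with Dcx were among the 11. Tubb3 and Stmn2 were at 0 to 3 UMIs in every glial identity of either library.

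**Figure D1:**
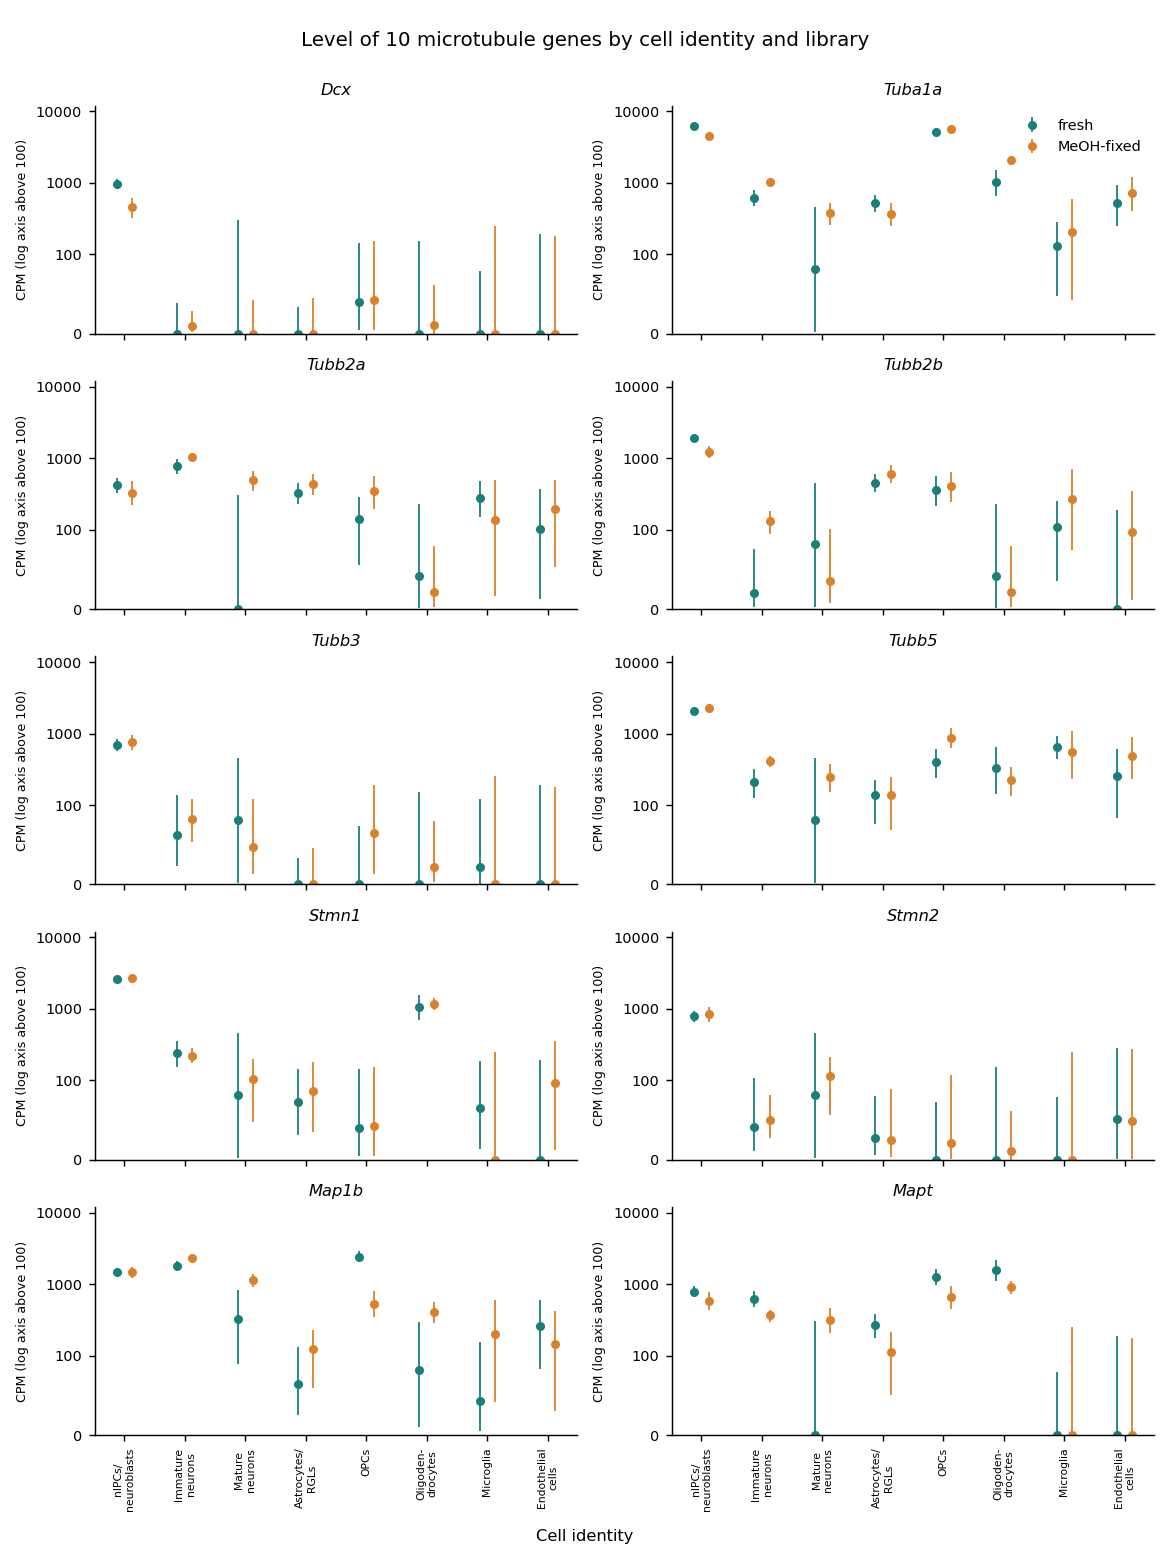
Level of each gene in CPM (y axis, linear up to 100 and logarithmic above) in the 8 cell identities (x axis) of the fresh (green) and MeOH-fixed (orange) library. Points are levels from summed UMIs and bars are exact 95% Poisson intervals of counting error. Dcx stands at 967 and 454 CPM in nIPCs and neuroblasts and near 0 elsewhere, whereas Tuba1a lies at 4495 CPM or above in nIPCs and OPCs and Mapt has its highest points in oligodendrocytes.

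Stmn1 (chr4:134468320-134473843, plus strand), a stathmin of dividing and young cells, was the second most abundant member in nIPCs and neuroblasts after Tuba1a, with a fresh level of 2629 CPM (2395 to 2880) and a MeOH-fixed level of 2656 CPM (2327 to 3019). It did not follow the division between neurons and glia. Oligodendrocytes held 1070 CPM (699 to 1567) and 1169 CPM (957 to 1413), more than immature neurons with 239 CPM (152 to 359) and 222 CPM (172 to 282), and all 13 MeOH-fixed oligodendrocytes and both fresh ones had a Stmn1 UMI. OPCs, by contrast, had 2 UMIs in each library (40 and 43 CPM). In oligodendrocytes Stmn1 was accompanied by Stmn4, another stathmin, at 1028 CPM (666 to 1518) and 496 CPM (362 to 664), while Stmn2 was at 0 and 1 UMI.

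Tuba1a (chr15:98949837-98953703, minus strand), the alpha-tubulin of young neurons, was the most abundant member and made up 89.6% of the alpha-tubulin UMIs of fresh and 70.5% of those of MeOH-fixed neuronal cells (nIPCs and neuroblasts with immature and mature neurons), and 86.7 and 88.2% of those of macroglial cells (astrocytes and RGLs, OPCs and oligodendrocytes). The share differed between identities. It was 95.2 and 81.6% in fresh and MeOH-fixed nIPCs and neuroblasts but 43.8 and 60.7% in immature neurons. Astrocytes and RGLs had 61.3 and 42.3%, and OPCs 95.9 and 95.3%. In nIPCs and neuroblasts Tuba1a had 6157 CPM (5795 to 6535) and 4495 CPM (4063 to 4961), and 16 of 16 and 20 of 21 cells had a UMI. Immature neurons had 624 CPM (476 to 804) and 1014 CPM (903 to 1134), and the 19 MeOH-fixed mature neurons had 373 CPM (255 to 527). OPCs had 5120 CPM (4514 to 5785) and 5683 CPM (5019 to 6410), and ranked below nIPCs in the fresh library and above them in the MeOH-fixed one. Oligodendrocytes followed with 1028 and 2084 CPM. Astrocytes and RGLs had 520 and 372 CPM of Tuba1a.

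The level in OPCs rested on few cells. A single fresh cell of 25296 UMIs held 220 of the 258 Tuba1a UMIs and 119 of the 122 Map1b UMIs of the 5 fresh OPCs. This cell had 0 UMIs of Pdgfra, the growth factor receptor that defines OPCs, and 245 UMIs of Mbp (myelin basic protein). Among MeOH-fixed OPCs 3 of 10 lacked a Pdgfra UMI, and those 3 had 10085 CPM of Tuba1a (8583 to 11775) against 3413 CPM (2791 to 4131) in the 7 cells with Pdgfra. The 4 fresh OPCs with Pdgfra had 1514 CPM (1072 to 2079). Map1b was 4704 CPM in the fresh cell without Pdgfra and 1324 CPM in the 3 MeOH-fixed ones, and 120 and 130 CPM in the cells with Pdgfra. OPCs without Pdgfra also held Tubb4a, the beta-tubulin of oligodendrocytes, at 6997 and 2836 CPM. The pooled levels of these 3 genes lay apart from those of OPCs with Pdgfra in both libraries, but 1 of the 3 MeOH-fixed cells without Pdgfra had 3 Tuba1a UMIs of 2157 (1391 CPM), below the lowest MeOH-fixed cell with Pdgfra (1453 CPM). The cells without Pdgfra were set apart after their values were seen.

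**Figure D2:**
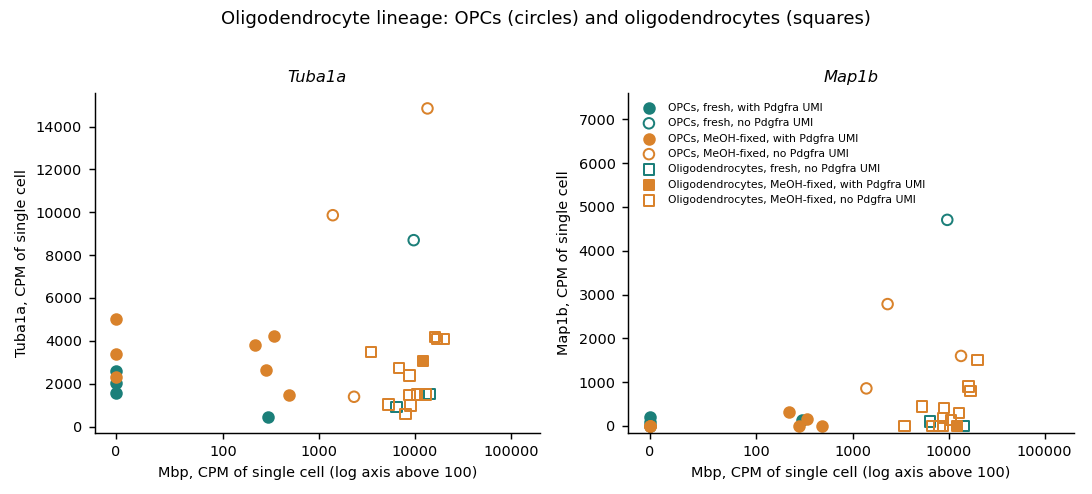
Tuba1a (left) and Map1b (right) in CPM of single cells (y axis) against Mbp in CPM (x axis, linear up to 100 and logarithmic above) in OPCs (circles) and oligodendrocytes (squares) of the fresh (green) and MeOH-fixed (orange) library, filled where the cell had a Pdgfra UMI. The OPCs without a Pdgfra UMI all carry Mbp, and 3 of these 4 have more Tuba1a than any other cell shown.

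Tubb2b, a beta-tubulin of neural progenitors and migrating neurons, and Tubb2a, which increases as neurons mature, differed in opposite directions between nIPCs and immature neurons, and both were lower in MeOH-fixed mature than in immature neurons. Tubb2b had 1935 CPM (1734 to 2152) in fresh and 1226 CPM (1006 to 1480) in MeOH-fixed nIPCs and neuroblasts, 21 CPM (2.52 to 75.2) and 133 CPM (94.7 to 180) in immature neurons and 35 CPM (7.22 to 102) in MeOH-fixed mature neurons. Tubb2a had 421 CPM (331 to 529) and 329 CPM (221 to 473) in nIPCs and neuroblasts, 770 CPM (605 to 967) and 1050 CPM (938 to 1172) in immature neurons and 490 CPM (353 to 662) in MeOH-fixed mature neurons. The order of both genes reversed between the identities in either library, and also within single cells. Tubb2b had more UMIs than Tubb2a in 15 of 16 fresh and 15 of 21 MeOH-fixed nIPCs and neuroblasts, whereas Tubb2a had more in 4 of 5 fresh and 23 of 25 MeOH-fixed immature neurons and in 13 of 19 MeOH-fixed mature neurons, with the other 6 equal. Astrocytes and RGLs carried both genes, at 329 and 434 CPM of Tubb2a and 456 and 607 CPM of Tubb2b, and oligodendrocytes had 1 or 2 UMIs of each.

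Tubb5 (chr17:35833921-35838306, minus strand), the beta-tubulin found in most cell types, was counted in all 8 identities of both libraries. Its highest level was again in nIPCs and neuroblasts, with 2043 CPM (1837 to 2265) and 2259 CPM (1956 to 2596). Microglia followed in the fresh library with 647 CPM (437 to 924), and OPCs in the MeOH-fixed library with 879 CPM (631 to 1193), and the intervals of both overlapped those of the next identity. Astrocytes and RGLs had 137 and 136 CPM. It was the member with the highest level in microglia in both libraries, where Dcx, Stmn2 and Mapt had 0 UMIs, although 3 UMIs would have been 64.7 CPM in fresh and 204 CPM in MeOH-fixed microglia.

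Taking the 7 beta-tubulins in the counts as a pool, nIPCs and neuroblasts, immature neurons and oligodendrocytes were each led by other genes, while MeOH-fixed immature and mature neurons had overlapping shares of Tubb2a, Tubb3, Tubb4a and Tubb5. In nIPCs and neuroblasts Tubb5 (36.7% of 978 UMIs in fresh and 42.1% of 473 in MeOH-fixed cells) and Tubb2b (34.8 and 22.8%) prevailed, and Tubb3 made up 12.5 and 13.95%. In immature neurons Tubb2a was at 49.7% of 149 UMIs (Clopper-Pearson 41.4 to 58.0%) and 48.3% of 656 (44.4 to 52.2%), and in MeOH-fixed mature neurons at 47.7% of 88 (37.0 to 58.6%). Nearly all beta-tubulin of oligodendrocytes was Tubb4a, 94.5% of 200 UMIs (90.4 to 97.2%) in fresh and 93.9% of 507 (91.4 to 95.8%) in MeOH-fixed cells. Astrocytes and RGLs had mainly Tubb2b (41.0 and 36.6%) and Tubb2a (29.5 and 26.1%). Tubb5 accordingly took 33.6% (30.9 to 36.5%) of the pool in fresh neuronal and 7.69% (5.62 to 10.2%) in fresh macroglial cells, and 28.3% (25.8 to 30.9%) and 9.17% (7.25 to 11.4%) in MeOH-fixed ones. These pooled neuronal and macroglial shares lay apart in both libraries, but the shares of single identities did not all follow. Tubb5 took 28.5% (21.3 to 36.6%) in MeOH-fixed OPCs, near the neuronal 28.3%. In fresh immature neurons it took 13.4%, near the 12.3% of fresh astrocytes and RGLs. The contrast was kept by MeOH-fixed immature neurons with 18.9% against 8.21% in MeOH-fixed astrocytes and RGLs. Fresh OPCs had 8.44%, but this share rested on 1 cell. The fresh OPC without a Pdgfra UMI held 177 of the 179 Tubb4a UMIs in the pool of 237. The 4 fresh OPCs with Pdgfra held 8 UMIs of Tubb5 and 2 of Tubb4a.

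**Figure D3:**
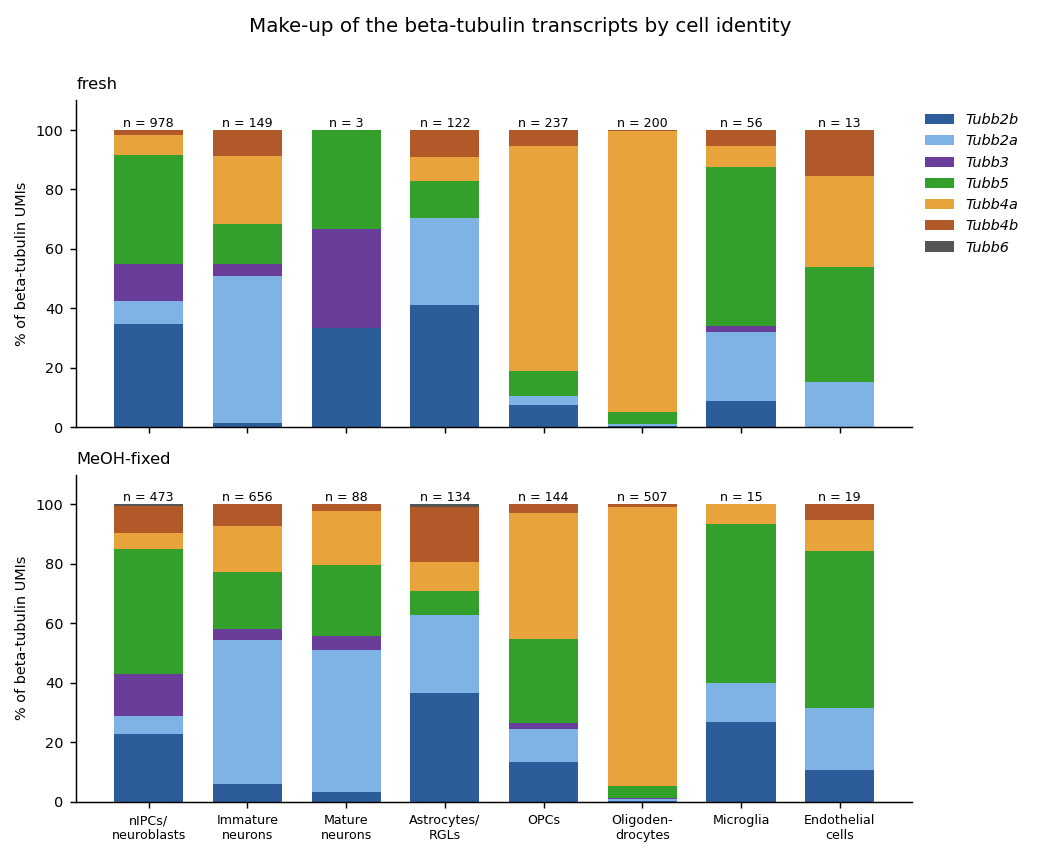
Share of each beta-tubulin gene in the UMIs of all 7 (y axis, percent) by cell identity (x axis) in the fresh (top) and MeOH-fixed (bottom) library, with the number of UMIs above each bar. Tubb4a fills 94.5 and 93.9% of the oligodendrocyte bars and Tubb2a close to 50% of those of immature neurons, and bars of few UMIs, such as the 3 of fresh mature neurons, carry little information.

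Map1b (chr13:99421446-99516540, minus strand), which binds microtubules in growing axons, was high in nIPCs and neuroblasts and in immature neurons, and lower in mature than in immature neurons. It had 1479 CPM (1305 to 1671) and 1476 CPM (1233 to 1752) in nIPCs and neuroblasts, 1811 CPM (1552 to 2101) and 2349 CPM (2179 to 2528) in immature neurons and 1132 CPM (918 to 1381) in MeOH-fixed mature neurons, and all 5 fresh and 25 MeOH-fixed immature neurons had a UMI. It was the most abundant member in immature neurons of either library. The 2 fresh mature neurons had 327 CPM (89.0 to 836, 4 UMIs). Astrocytes and RGLs had 64 and 124 CPM.

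Mapt (chr11:104231390-104332090, plus strand), which encodes tau, was not higher in neurons than in oligodendrocytes. Oligodendrocytes had 1563 CPM (1106 to 2146), of which 37 of 38 UMIs came from 1 of the 2 fresh cells, and 904 CPM (719 to 1122), with a UMI in 12 of 13 MeOH-fixed cells. OPCs had 1270 CPM (978 to 1622) and 665 CPM (452 to 944), nIPCs and neuroblasts 785 CPM (659.7 to 928) and 590 CPM (441 to 774), and immature neurons 624 CPM (476 to 804) and 364 CPM (299.5 to 439). The intervals of oligodendrocytes and OPCs overlapped in both libraries. The level in OPCs again differed with Pdgfra. OPCs with a Pdgfra UMI had 797 CPM (487 to 1231) in fresh and 325 CPM (156 to 598) in MeOH-fixed cells. Those without had 1739 CPM (1264 to 2335) and 1324 CPM (819 to 2023). Mapt was thus counted at similar or higher levels in oligodendrocytes than in the neuronal identities, and at 0 UMIs in microglia and endothelial cells.

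**Figure D4:**
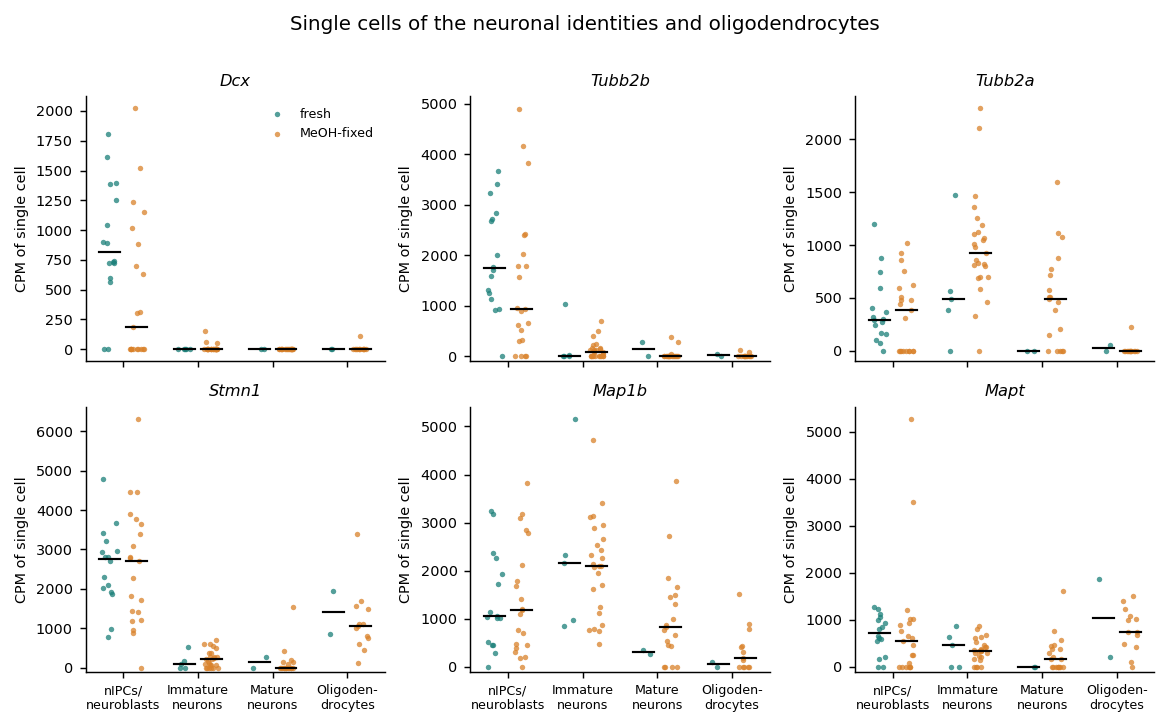
CPM of single cells (y axis) for 6 of the genes in nIPCs and neuroblasts, immature neurons, mature neurons and oligodendrocytes (x axis) of the fresh (green) and MeOH-fixed (orange) library, 1 point per cell, with the median as a black line. Dcx is confined to nIPCs and neuroblasts except for 4 MeOH-fixed cells, from nIPCs to immature neurons Tubb2b is lower and Tubb2a higher, and the medians of Stmn1 and Mapt are higher in oligodendrocytes than in immature and mature neurons.

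To compare neurons with glia, summed UMIs of neuronal cells were divided by those of macroglial cells, for genes with at least 50 UMIs in both groups together (the genes compared). In the fresh library 9 of 10 members were at least 2-fold higher in neuronal cells and 0 were 2-fold lower, where 37.2% of the 1660 genes compared were higher and 15.7% lower, and the median log2 ratio was 2.10 for the members and 0.54 for all genes. Tubb3 was at least 27.9-fold higher (129 UMIs against 0), Stmn2 30.9-fold (log2 interval 3.37 to 7.25, 143 against 3 UMIs) and Dcx 55.1-fold (log2 interval 3.91 to 8.84, 170 against 2 UMIs). Mapt was level, with a log2 ratio of -0.03 (-0.35 to 0.30). In the MeOH-fixed library 5 of 9 members compared were 2-fold higher and 0 lower, where 35.2% of 2900 genes were higher and 13.5% lower, and the median was 1.13 against 0.57. These 5 were Tubb2a, Tubb3, Tubb5, Stmn2 and Map1b, and Dcx, with 43 against 3 UMIs, fell below the limit on UMIs at a log2 ratio of 2.72 (1.07 to 5.05).

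The ratios differed between the libraries for several members. Stmn1 had a log2 ratio of 3.13 (2.64 to 3.66) in fresh and 0.31 (-0.01 to 0.63) in MeOH-fixed cells, and Tubb2b 1.69 (1.31 to 2.08) and -0.02 (-0.43 to 0.41). Those of Tuba1a and Map1b moved with the choice of OPCs. Tuba1a had a log2 ratio of neuronal over macroglial cells of 1.12 (0.95 to 1.30) in the fresh and -0.52 (-0.69 to -0.36) in the MeOH-fixed library, which became 2.41 and -0.05 with OPCs restricted to those with a Pdgfra UMI. Map1b went from 1.12 to 4.35 and from 2.58 to 2.96 in the same way, and 8 rather than 9 members were then 2-fold higher in the fresh library. The neuronal cells were also of unlike make-up, since nIPCs and neuroblasts held 32.9% and immature neurons 18.0% of all UMIs of the fresh library, against 12.1 and 41.4% in the MeOH-fixed one. Macroglial cells differed in make-up as well, with oligodendrocytes at 4.55% of all UMIs of the fresh and 12.4% of those of the MeOH-fixed library. Oligodendrocytes held 26 of the 36 macroglial Stmn1 UMIs in fresh and 106 of the 115 in MeOH-fixed cells. The part of either make-up in the difference between the libraries was not tested.

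Among 66 other microtubule genes in the counts, 12 of the 31 compared in the fresh library were 2-fold higher in neuronal cells and 2 lower. In the MeOH-fixed library these were 15 and 3 of the 39 compared. The share higher was thus 38.7% in fresh and 38.5% in MeOH-fixed cells, near the 37.2 and 35.2% of all genes. The share lower was 6.45 and 7.69%, against 15.7 and 13.5% of all genes in the 2 libraries. Crmp1, a collapsin response mediator of axon growth, was highest in both, with 136 against 0 UMIs in fresh (at least 29.4-fold) and a log2 ratio of 4.09 (2.71 to 5.99) in MeOH-fixed cells, and the kinesin Kif5c had 4.41 (131 against 4 UMIs) and 2.96 (136 against 8 UMIs). Dpysl5 (4.64) completed the 3 highest in fresh cells, and Cdk5r1 (2.90), an activator of the kinase Cdk5, those in MeOH-fixed cells. Tubb4a was the lowest, at -2.53 (-2.86 to -2.21) and -3.07 (-3.34 to -2.80). It was followed in fresh cells by the doublecortin relative Dclk1 (-1.76) and the kinesin Kif1b (-0.81), and in MeOH-fixed cells by Ttll7 (-2.80), which adds glutamates to tubulin tails, and Map7 (-1.09). Dclk1 was high where Dcx was not, with 1478 CPM (1260 to 1725) in fresh and 1090 CPM (874 to 1343) in MeOH-fixed astrocytes and RGLs and 176 and 204 CPM in nIPCs and neuroblasts.

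Along the neuronal lineage, immature neurons were compared with nIPCs and neuroblasts. In fresh cells 7 of 10 members were at least 2-fold lower in immature neurons and 0 higher, where 23.6% of the 874 genes compared were lower and 25.1% higher, with a median log2 ratio of -3.38 for the members and -0.09 for all genes. Dcx was at least 31.0-fold lower (0 against 170 UMIs), Tubb2b 93.0-fold lower (log2 interval -9.59 to -4.67, 2 against 340 UMIs), and Tuba1a, Tubb3, Tubb5, Stmn1 and Stmn2 were 9.82- to 18.9-fold lower. Tubb2a (0.87, 0.39 to 1.36), Map1b (0.29, 0.01 to 0.57) and Mapt (-0.33, -0.79 to 0.12) kept within 2-fold. In MeOH-fixed cells 6 of 9 members compared were lower and 1 higher, where 11.7% of 1602 genes were lower and 36.5% higher, with medians of -2.46 and 0.52. The 1 member that was higher was Tubb2a, at 3.19-fold (log2 interval 1.12 to 2.28). Stmn2 was 16.9-fold, Stmn1 11.97-fold, Tubb2b 9.25-fold, Tubb3 9.05-fold, Tubb5 5.50-fold and Tuba1a 4.43-fold lower.

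The fresh values of immature neurons rested on 3 cells of 28791, 31254 and 31563 UMIs, which held nearly all UMIs of the 5. Median depth was 28791 UMIs in fresh immature neurons against 11469 in fresh nIPCs and neuroblasts, and 11563 against 3873 in MeOH-fixed cells, and the part of depth in the ratios was not tested beyond thinning. Thinned to 800 UMIs, members compared in fresh cells had a median of -0.96, at levels near that of 1 UMI.

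Of the other microtubule genes, 8 of 22 compared (36.4%) were 2-fold lower and 2 (9.09%) higher in fresh immature neurons, against 23.6 and 25.1% of all genes. In MeOH-fixed immature neurons 2 of 30 (6.67%) were lower and 6 (20.0%) higher, against 11.7 and 36.5% of all genes. The lowest in fresh cells were Dpysl5 (-5.38, 1 against 76 UMIs), the tubulin acetyltransferase Atat1 (-4.43) and the kinesin Kif21b (-3.88), and the highest were Dclk1 (1.50), Mapre2 (1.07) and Tuba1b (0.95). In MeOH-fixed cells Tubb4b (-1.65), Mapre1 (-1.05) and Tuba1b (-0.93) were lowest and Tuba4a (2.34), the plus-end protein Mapre3 (1.98) and Map9 (1.74) highest. Tuba1b thus had opposite signs in the 2 libraries, and its level in nIPCs and neuroblasts was 302 CPM (226 to 394) in fresh and 920 CPM (730 to 1143) in MeOH-fixed cells.

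Mature were compared with immature neurons in the MeOH-fixed library, since the fresh library had 2 mature neurons with 12246 UMIs in all. There 4 of 6 members compared were 2-fold lower in mature neurons, where 30.8% of 1616 genes were lower and 8.79% higher, with medians of -1.07 and -0.54. These were Tuba1a (-1.44, -2.01 to -0.91), Tubb2a (-1.10, -1.60 to -0.63), Stmn1 (-1.08, -2.27 to -0.07) and Map1b (-1.05, -1.37 to -0.75), while Tubb5 had -0.75 (-1.49 to -0.07) and Mapt -0.21 (-0.87 to 0.41). With mitochondrially encoded genes left out of the total, which moved all ratios by 0.12, 1 member was past 2-fold. The count was also 1 with each cell weighted equally and 1 after thinning to 800 UMIs, where Stmn1 was at 0.81. Mature neurons had a median of 2554 UMIs and 16.7% mitochondrial UMIs per cell against 11563 UMIs and 6.20% in immature neurons, and the part of these in the difference was not tested. Of the other microtubule genes 10 of 30 (33.3%) were lower, near the 30.8% of all genes, and 1 (3.33%) higher, against 8.79%. They ranged from Tubb4b (-2.77), Tuba1b (-1.67) and Pafah1b1 (-1.65), which acts with dynein, to Dclk1 (0.73), Kif5a (0.74) and Kif1a (1.32).

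The study asked what MeOH fixation does to such profiles. Over all filtered cells 2 of 10 members, Dcx and Tubb2b, were at least 2-fold lower in the MeOH-fixed library and 0 higher, where 5.47% of 5099 genes were lower and 10.1% higher, with medians of -0.74 for the members and 0.16 for all genes. The fresh and MeOH-fixed levels were 322 and 63 CPM for Dcx and 781 and 311 CPM for Tubb2b. The libraries held different shares of each identity, so that each member was also computed with the identities of both libraries weighted as in the fresh one. Weighted in this way the log2 ratio went from -2.35 to -1.05 for Dcx, from -1.33 to -0.33 for Tubb2b, from -0.75 to 0.02 for Stmn1, from -0.95 to 0.11 for Stmn2, from -0.83 to 0.15 for Tubb3 and from -0.73 to -0.21 for Tuba1a. Mapt stayed at -0.53 and -0.65. With these weights 1 member, Dcx, was past 2-fold, whereas with the weights of the MeOH-fixed library Dcx was at -0.92 and with equal weights at -0.96. Tuba1a was then at 0.14 and 0.08.

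Within nIPCs and neuroblasts 1 of 10 members was past 2-fold, where 7.97% of 765 genes were lower and 5.75% higher, with medians of -0.18 and -0.04. This was Dcx at -1.09 (-1.63 to -0.59), followed by Tubb2b at -0.66 (-0.98 to -0.34) and Tuba1a at -0.45 (-0.62 to -0.29). The intervals of the other 7 included 0. Stmn1 (0.01, -0.22 to 0.24), Map1b (-0.004, -0.32 to 0.31), Stmn2 (0.10, -0.33 to 0.51), Tubb3 (0.11, -0.34 to 0.55) and Tubb5 (0.15, -0.11 to 0.40) had intervals of counting error that did not reach 2-fold in either direction. Such intervals do not cover variation between cells or mice, so that a 2-fold difference between the conditions is not excluded. Without the deepest cell of each library Dcx was at -0.88, and when cells were thinned to 800 UMIs at -0.22.

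Markers of stages within this identity differed between the libraries in both directions, some along with Dcx and some against it. Sox11, a transcription factor of young neurons, was 3642 CPM (3365 to 3935) in fresh and 1850 CPM (1577 to 2157) in MeOH-fixed nIPCs and neuroblasts, and Neurod1 was 1866 CPM (1670 to 2080) and 1067 CPM (862 to 1306). Of the other 5 markers on the list, Calb2 (865 and 647 CPM), Igfbpl1 (706 and 499 CPM) and Eomes (279 and 159 CPM) had lower values too. Eomes is a factor of intermediate progenitors. Whether the differences of Calb2, Igfbpl1 and Eomes go beyond counting error was not tested. The cyclin Ccnd2 was higher in MeOH-fixed cells, at 715 CPM (549.6 to 915) against 91 CPM (52.0 to 148). Top2a (topoisomerase of replicating DNA) had 0 UMIs in fresh and 16 in MeOH-fixed cells, 13 of which came from 1 cell. The part of the stages in the difference of Dcx was not tested. Among the 26 other microtubule genes compared there, Tubb4b (2.46, 1.60 to 3.38), the kinesin Kif5b (1.63) and Tuba1b (1.61, 1.09 to 2.14) were the highest in MeOH-fixed cells, with 4 past 2-fold in all, and Kif21a (-1.88), the kinase Gsk3b (-1.004) and Kif5c (-0.97) were the lowest, with 2 past 2-fold. The 4 higher and 2 lower genes were 15.4 and 7.69% of those compared, against 5.75 and 7.97% of all genes.

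Within immature neurons 0 of 6 members compared were past 2-fold, where 8.53% of 1676 genes were higher in MeOH-fixed cells and 3.76% lower, with medians of 0.41 and 0.12. After thinning to 800 UMIs the members' median was -0.47 with 3 past 2-fold, and with each cell weighted equally it was 0.67 with 1. Tubb5 (0.98, 0.29 to 1.74), Tuba1a (0.70, 0.30 to 1.12), Tubb2a (0.45, 0.08 to 0.83) and Map1b (0.38, 0.13 to 0.62) lay above 0, Mapt (-0.78, -1.24 to -0.30) below it and Stmn1 (-0.11, -0.81 to 0.64) on both sides. Of the other microtubule genes 2 of 30 compared (6.67%, against 8.53% of all genes) were 2-fold higher, Pafah1b1 (1.35) and Stmn4 (1.27), followed by Dpysl2 (0.88). Of these 30 genes 0 were lower, against 3.76% of all genes, with Kif1b (-0.79), Map7d2 (-0.76) and Kif5c (-0.47) at the low end. Over all filtered cells 6 of 51 (11.8%) were higher and 4 (7.84%) lower, against 10.1 and 5.47% of all genes. Map1a (1.30), the deglutamylase Agtpbp1 (1.29) and Map7 (1.25) were at one end and Kif21b (-1.79), Dpysl5 (-1.58) and Dpysl3 (-1.29) at the other. Counting each member in each identity with at least 50 UMIs in both libraries together gave 27 ratios, of which 7 had an interval above 0 and 7 below it. The share over all genes was not computed, so that these counts are no result about the members. Mapt was below 0 in 3 of its 4 identities, and in the remaining one, nIPCs and neuroblasts, at -0.41 (-0.90 to 0.06). Of its fresh UMIs 37 of 38 in oligodendrocytes and 44 of 64 in OPCs came from 1 cell each, and the other fresh oligodendrocyte had 1 UMI of 4639 (216 CPM, below the MeOH-fixed 904 CPM).

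**Figure D5:**
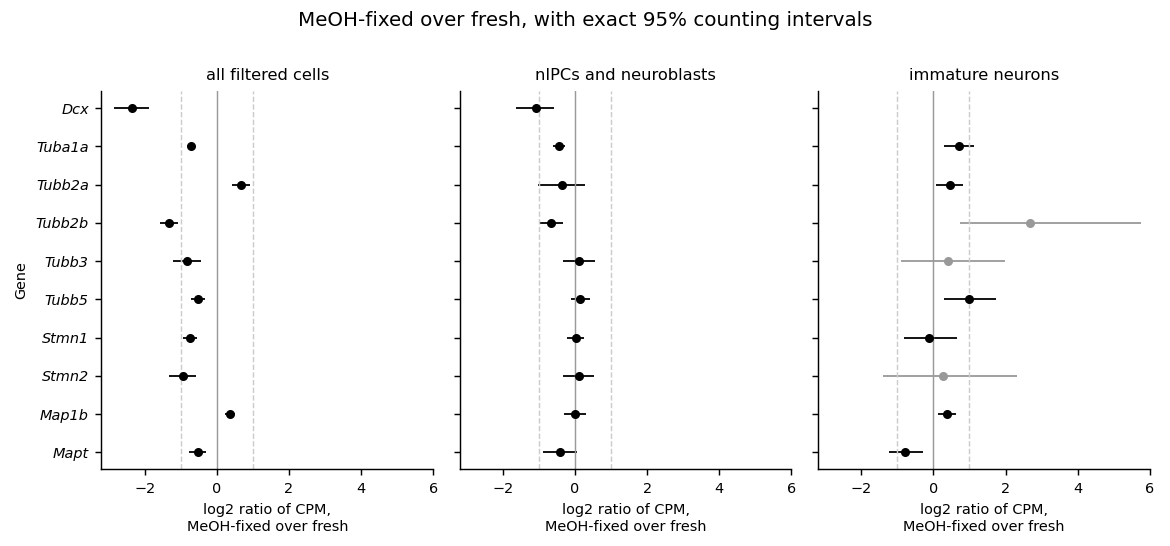
Log2 ratio of CPM of MeOH-fixed over fresh cells (x axis) for each gene (y axis) over all filtered cells, within nIPCs and neuroblasts and within immature neurons, with exact 95% intervals of counting error and dashed lines at 2-fold. Grey points had fewer than 50 UMIs and Dcx has no point in immature neurons, where it had 0 and 3 UMIs. Within nIPCs and neuroblasts Dcx lies at -1.09 and 7 of the 10 intervals include 0.

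Finally, the profile of each member over the 14 groups of identity and library with at least 5 cells was set beside those of 1022 genes with at least 200 UMIs, as Pearson's r of log2(CPM + 10). These points share libraries and cells and differ in depth, so that r is a description, and the order depends on the measure. By Spearman's rho Sox11 was number 16 for Dcx and Idh3b number 81 for Tubb2a, and with a pseudocount of 1 CPM Tubb3 was number 30 for Stmn1. Dcx was most like Sox11 (0.91), Calb2 (0.86) and Fxyd6 (0.85), and Tubb3 like Sox11 (0.89), Crmp1 (0.88) and Ttc3 (0.87). Stmn2 was most like Nfib (0.90), Neurod1 (0.86) and Nrep (0.83), and Stmn1 like Stmn4 (0.85), Tubb3 (0.79) and Mllt11 (0.79). The genes closest to Tuba1a were Tmeff1 (0.86), Fxyd6 (0.81) and Dcx (0.81). Tubb2b went with Nnat (0.82), Hspe1 (0.79) and Hnrnpc (0.77), but Tubb2a with Idh3b (0.83), Atp2b2 (0.82) and Pgm2l1 (0.81), and r between Tubb2a and Dcx was 0.09. The 3 nearest to Tubb5 were Rpl10a (0.91), Eef2 (0.90) and Rpl18 (0.88), genes of the translation machinery. Map1b was most like Bex2 (0.88), Pnmal2 (0.85) and Pak3 (0.85), and Mapt like Clip3 (0.94), Ncam1 (0.94) and Pfn2 (0.94).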

How the data were processed

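Single cells of the dentate gyrus were measured by SORT-seq on 1 fresh and 1 MeOH-fixed plate. Reads had been aligned to GRCm38 (STAR), without those of several equally good positions. The authors deposited expected counts, in which UMI numbers are adjusted for the chance that molecules share a tag, both for all barcodes and for filtered cells. Identities are the authors' annotation. The processing notes name R 4.2.0 and Seurat 4.1.0.

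Whole UMI numbers were recovered by inverting the adjustment (largest distance from a whole number 3.64e-12, tolerance 1e-06). UMIs were summed per identity and library and scaled to CPM. Cells held 971 to 31563 UMIs in the fresh and 1000 to 34333 in the MeOH-fixed library (medians 6318 and 3452). With 1 library per condition no model was fitted. Intervals (95%) are exact Poisson for levels, Clopper-Pearson for shares and conditional binomial for ratios, and cover counting error alone. A count of 0 was raised to 3 UMIs for a bound. Genes with at least 50 UMIs in both groups together were compared, and called at a 2-fold difference. Doublets were not called. Markers of the other class (neuronal or not) exceeded 1% of UMIs in 0 cells. This could not exclude doublets, since the markers of nIPCs and neuroblasts reached only 7449 CPM in fresh cells of that identity itself. Mixes of 2 glial identities could not be seen by it at all.

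The members and lists were chosen with earlier results of these data known. Named were all members, the 3 highest and 3 lowest of a list of other microtubule genes in each comparison, and the 3 nearest profiles of each member. Of 68 listed genes 66 were in the counts. Sequences were taken from GRCm38 with GENCODE vM21, and counting by strand is not given in the sources used here. In all 82 alternatives were set and 2 were added after the data were seen. The calculation of the ratios was run on simulated counts with counting error alone. These held no variation between cells or mice, so that the run checks the calculation and not how far the intervals hold for real cells. Python 3.11.15, numpy 2.4.6, pandas 2.3.3, scipy 1.17.1, biopython 1.88 and matplotlib 3.10.9 were used.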

Additional observations from a re-analysis of the deposited data

Results flagged for a closer look

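For 2 members the ratio of MeOH-fixed over fresh cells had intervals on opposite sides of 0 in different identities. Tuba1a had log2 ratios of 1.02 in oligodendrocytes and 0.70 in immature neurons but of -0.45 in nIPCs and neuroblasts. Map1b had 0.38 in immature neurons and 1.79 in mature neurons but -2.18 in OPCs, where 119 of the 122 fresh UMIs came from 1 cell. These differences between identities were not tested, since there was 1 library per condition, and the fresh sides held 2 oligodendrocytes, 2 mature neurons and 5 OPCs.

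Tuba1a was higher in neuronal than in macroglial cells of the fresh library (log2 ratio 1.12) and lower in those of the MeOH-fixed library (-0.52), with intervals on opposite sides of 0. OPCs without a Pdgfra UMI held 220 of the 340 macroglial Tuba1a UMIs in fresh cells (1 cell) and 160 of the 484 in MeOH-fixed cells (3 cells). Both ratios changed with those cells left out, as given above. The difference between the libraries was not tested either.

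The barcodes that failed the filter (320 fresh with 140164 UMIs and 252 MeOH-fixed with 83655 UMIs) entered no comparison and carried member transcripts as well. All members together had 3610 CPM in failed fresh and 2355 CPM in failed MeOH-fixed barcodes. Dcx was at 28.5 CPM in failed fresh barcodes (4 UMIs, 7.78 to 73.1 CPM), above the 21.4 CPM that 3 UMIs would be, against 322 CPM in fresh cells that passed. In failed MeOH-fixed barcodes it had 2 UMIs. Map1b (942 CPM) and Tubb2a (350 CPM) of failed fresh barcodes were near their levels in cells that passed (1078 and 388 CPM), whereas Dcx, Tuba1a, Tubb2b, Tubb3, Tubb5, Stmn1, Stmn2 and Mapt were lower, with intervals of the log2 ratio below 0. This did not repeat in the MeOH-fixed library. There Map1b (526 against 1391 CPM) and Tubb2a (179 against 613 CPM) were lower in failed barcodes, with intervals below 0. The intervals of Dcx, Tubb2b and Stmn2 included 0, and those of the other members lay below it.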

How the results depend on the processing

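Of 186 values that answer a comparison under an alternative, 158 stayed within the limits and 28 moved. 1 of the medians that moved, that of MeOH-fixed over fresh immature neurons, changed sign (from 0.41 to -0.47, after thinning). Of 547 values of single genes 464 stayed, 78 moved and 5 reversed. Adjusted in place of whole counts moved 0 of 76 single genes, and a limit of 25% mitochondrial UMIs, or a total without mitochondrial genes, also 0. The causes of the changes below were not tested, except that thinning leaves few UMIs per gene. No paired analysis was possible because each condition has 1 library and the result comes from no test.

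Weighting each cell equally gave a member median of 2.74 for fresh neuronal over macroglial cells, of -0.17 for MeOH-fixed over fresh cells as a whole, and counts past 2-fold of 1 for mature over immature neurons, 1 over all cells, 0 in nIPCs and 1 in immature neurons. It reversed Tubb2b of MeOH-fixed over fresh immature neurons (-0.72). Thinning to 800 UMIs gave medians of -0.96 (immature neurons over nIPCs, fresh), -0.42 (mature over immature), -0.26 (MeOH-fixed over fresh, all cells) and -0.47 (immature neurons), with counts of 1 for mature over immature neurons, 0 over all cells, 0 in nIPCs and 3 in immature neurons. Shares after thinning were 15.0 and 12.2% for Tubb5 in fresh and MeOH-fixed macroglial and 33.3% in MeOH-fixed neuronal beta-tubulin, and 30.4 and 6.15% of fresh and MeOH-fixed neuronal cells had a Dcx UMI. Dcx at the fresh mix was then -0.091. Thinning reversed Tubb2a in fresh neuronal over macroglial cells (-0.14), Stmn1 (0.81) and Stmn2 (-0.60) in mature over immature neurons and Tubb2b in MeOH-fixed over fresh immature neurons (-0.74). Without the deepest cell of each identity the fresh neuronal over macroglial median was 3.40, the count in nIPCs 0 and the Tubb5 share of fresh macroglia 11.4%. With OPCs limited to those with Pdgfra that median was 2.85. Of mature over immature neurons, 1 member was past 2-fold without mitochondrial genes in the total and 2 without Rn45s as well. In immature neurons of MeOH-fixed over fresh cells, 1 member was past 2-fold at a limit of 20 UMIs and 1 with at most 25% mitochondrial UMIs.

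Scaling without mitochondrial genes or Rn45s shifted all log2 ratios of a comparison by -0.14 to 0.12.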
